A study of Mus musculus with 6 samples.

Results

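The cytosolic ribosomal protein genes were examined in RNA-seq counts of B16-BL6 cells, a mouse melanoma line, with and without the receptor for IFN-γ. The genes were chosen by symbol: a protein-coding gene was a member if its GENCODE M21 symbol began with Rpl or Rps and a digit, or was Rpsa, Rplp0, Rplp1 or Rplp2, and pseudogenes and the Rps6k kinases were left out. The rule found 86 of the 55335 genes counted. Of these, 31 encode core proteins of the small (40S) subunit and 46 encode core proteins of the large (60S) subunit. The other 9 are 8 paralogs (Rpl3l, Rpl7l1, Rpl10l, Rpl22l1, Rpl36al, Rpl39l, Rps27l and Rps27rt) and Rps19bp1, which encodes a binding partner of Rps19 and is no ribosomal protein. Another 6 genes annotated as protein-coding carry a pseudogene symbol and were not taken as members. The symbol rule also misses genes such as Fau and Rack1, which encode ribosomal proteins under other names, and the values of these are given separately.

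The scrambled control group (3 libraries, numbered 1, 2 and 3) was made of cells transduced with Cas9 and a guide against GFP, and the IFNγR1KO group (3 libraries, numbered 10, 11 and 12) of cells transduced with Cas9 and guides against exon 1 of Ifngr1. All libraries came from cells cultured without a treatment named in the labels, and the groups share the lentiviral vector. The knockout cells were grown from single-cell clones, so clone and genotype cannot be told apart. By the study's methods, each group was plated in triplicate on the day before its RNA was taken, so p-values measure the spread between parallel cultures, and whether the 3 cultures of a group came from 1 clone is not given.

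Each ribosome is built from ribosomal RNA and a set of proteins used in equal numbers, and the mRNAs of these proteins are among the most abundant of a growing cell. Most of them begin with a 5′ terminal oligopyrimidine (TOP) tract, a C followed by a run of C and T (U in the RNA), through which mTORC1 signalling and the repressor Larp1 set how actively they are translated. The study reported heightened PI3K-Akt-mTOR signalling in cells without the receptor, from phosphoproteomics and from Western blots of phosphorylated pathway proteins. Counts of poly(A) RNA measure the abundance of these mRNAs, not their translation.

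The annotated start sites of members were therefore read for such a tract. Promoter sequences from RefSeq (GRCm38.p6) matched 66 of the 86 members. A tract was taken as a run of at least 5 C or T bases, on the gene's own strand, that begins with a C no more than 5 bases from the annotated start. By this definition 30 of 66 members (45.5%) held one, and so did 21.2% of the 27025 genes in the promoter table. For members with several annotated starts a tract at any of them was enough. Rps21, Rps24, Rps27l and Rpl35a also have a start without a tract. Other definitions were looked at before this one was taken. A run of at least 5 that begins exactly at the start was held by 21.2% of members and 3.01% of all genes, a run of at least 6 within 5 bases by 40.9% and 11.9%, and a run of at least 8 within 5 bases by 31.8% and 5.17%. The 30 members with a tract had a median log2 fold change of 0.09 and the 32 tested members without one had 0.08, from the comparison described below. The following windows, 10 bases before the start and 15 from it, are of members whose values are given below. Capitals mark the tract, and the last 4 hold none by this definition.
Rps6, chr4:86857353-86857377, minus strand: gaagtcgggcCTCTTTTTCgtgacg
Rpl12, chr2:32961702-32961726, plus strand: agcaggatccgtCTTTTCggctttc
Rpl13a, chr7:45128731-45128755, minus strand: cctgcgacaagaCCTCCTCCTTTCC
Rps27l, chr9:66946076-66946100, plus strand: cctccccgccgCCTCTatcccggaa
Rpl5, chr5:107900518-107900542, plus strand: cgtcgcttgcgtgctggtggtgcta
Rps12, chr10:23787195-23787219, minus strand: tcatgcggccaccgccggccttttc
Rps28, chr17:33824548-33824572, minus strand: cgcgtgcggtctcgcgagagcgaaa
Rpl7l1, chr17:46782642-46782666, minus strand: gctgcgcaagcgcagtagctgaagc
The tract of Rps6 begins at the annotated start itself, those of Rpl12 and Rpl13a lie 2 bases further in, and that of Rpl13a runs to the end of the window. A match describes these letters only, and a missing one says nothing of the mRNA's true 5′ end.

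The libraries differed in depth and in composition. They held 9402640 to 10579788 counts on genes in scrambled control and 6698956 to 7409479 in IFNγR1KO, so 1 count is worth 0.0966 to 0.109 CPM (counts scaled to a common library total with TMM factors) in the first group and 0.135 to 0.142 CPM in the second. Ifngr1, the targeted gene, was still counted, at 144 to 172 counts in scrambled control and 80 to 85 in IFNγR1KO libraries (log2 fold change -0.47, SE 0.16, adjusted p = 0.0729). All 8 melanocyte lineage markers were detected, with a summed level of 32941 to 35876 CPM in scrambled control and 28795 to 33685 CPM in IFNγR1KO. Markers of other cell types summed to 4.68 to 6.73 CPM and 6.54 to 8.72 CPM, and Cd3e, Itgam, Adgre1 and Cdh5 were at 0 in every library. The test described below called 0 of the 8 melanocyte markers (2 at an unadjusted p under 0.05, 1 by DESeq2), where 15.3% of all tested genes were called. Their median log2 fold change was -0.16, with 7 below 0. The groups did not overlap for 4 of them (50%), against 32.6% of all tested genes. Without scrambled control 3 and IFNγR1KO 12, 1 was called higher and 2 lower, where 10.5% and 11.8% of all tested genes were. In that fit 5 (62.5%) had an unadjusted p under 0.05, as did 34.4% of all tested genes. Of the 11 markers of other cell types 2 passed the filter on low counts, and their groups did not overlap. Col1a1, a fibrillar collagen, was called higher in IFNγR1KO (log2 fold change 1.96, SE 0.32, adjusted p = 0.00175), whereas Pdgfra, a receptor of stromal cells, stood at -0.77 (SE 0.28, adjusted p = 0.0866). Scrambled control 3 and IFNγR1KO 12 stood apart from the other libraries of their groups, among others in the ribosomal protein genes, as described next. The main results are therefore given with and without this pair of libraries, a choice made after these values had been seen.

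The share of counts on ribosomal protein genes varied more within each group than between the groups. The members held 9.17%, 9.48% and 6.79% of the gene counts in scrambled control 1, 2 and 3, and 10.4%, 10.3% and 7.51% in IFNγR1KO 10, 11 and 12. The exact (Clopper-Pearson) 95% intervals of these shares are narrow, 9.16% to 9.19% for scrambled control 1 and 7.49% to 7.53% for IFNγR1KO 12, and cover counting error only. The group means were 8.48% ± 1.47 and 9.39% ± 1.63 (SD, n = 3 each), a difference of 0.912 percentage points that was smaller than either SD (two-sided exact permutation test, p = 0.5, where 3 libraries against 3 can reach 0.1). The groups overlapped, since IFNγR1KO 12 lay below scrambled control 1 and 2. Without scrambled control 3 and IFNγR1KO 12, the means were 9.33% and 10.3%. IFNγR1KO was thus above scrambled control both within the low pair and among the other libraries. With group labels exchanged only within these sets (12 arrangements) the exact permutation p was 0.167, the smallest that they allow. The sets were chosen from these same shares, so this p is not independent of that choice.

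**Figure D1:**
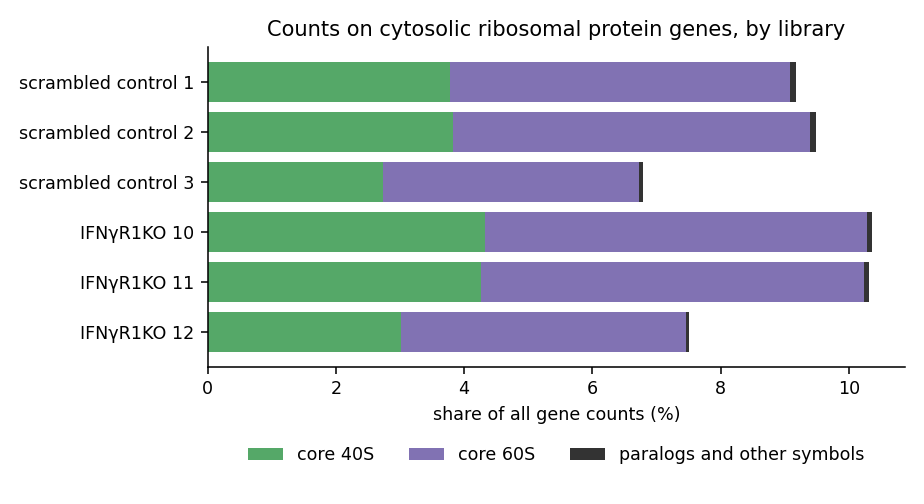
Share of all gene counts (%, x axis) held by the core 40S, core 60S and other members in each of the 6 libraries. Scrambled control 3 (6.79%) and IFNγR1KO 12 (7.51%) lie below the other libraries, which hold 9.17% to 10.4%.

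The small and large subunit genes moved together in this. Core 40S genes held 3.45% ± 0.621 of the counts in scrambled control and 3.87% ± 0.734 in IFNγR1KO (SD, n = 3 each, two-sided exact permutation test, p = 0.5), and core 60S genes held 4.95% ± 0.838 and 5.45% ± 0.883 (p = 0.5 in the same exact test). The ratio of 40S to 60S counts was 0.716, 0.686 and 0.683 in scrambled control and 0.725, 0.715 and 0.682 in IFNγR1KO cells. Its means were 0.695 ± 0.0182 and 0.708 ± 0.0225 (SD, n = 3 each), and the difference of 0.0124 was within the spread of the libraries (exact permutation test, p = 0.7). This ratio is of counts, not of proteins, and depends on the transcript lengths of each set. The 307 Rpl and Rps pseudogenes, which are copies of these genes, held 0.0887% ± 0.0183 and 0.103% ± 0.0161 of the counts. Reads with more than 1 alignment were set aside before counting and made up 4.26% ± 0.327 and 4.12% ± 0.315 of all tallied reads, so that reads shared exactly with a pseudogene are missing from the members.

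Nearly every member was low in the same pair of libraries. Scrambled control 3 had the lowest CPM of its group in 79 of 82 tested members and IFNγR1KO 12 in 81, and 79 members (96.3%) were lowest in both, against 27.8% of all tested genes. Among the 77 tested mitochondrial ribosomal proteins, 67 (87.0%) were lowest in both as well. Relative to the mean of the other libraries of its group, the median member lay 0.55 lower on the log2(CPM + 0.5) scale in scrambled control 3 (range -1.04 to 0.0093) and 0.57 lower in IFNγR1KO 12 (range -1.07 to 0.15). The members ranked alike in both, with a Pearson correlation of 0.85 across the 82 members and 0.64 across all 13642 tested genes. These are correlations across genes, which share the libraries, and no test was made. Rps21, a small subunit protein, was among those that differed most, with 724, 818 and 374 CPM in the controls and 809, 735 and 423 CPM in IFNγR1KO. Rps4x, an X-linked small subunit protein, differed least in both libraries, by 0.0058 in scrambled control 3 and by -0.08 in IFNγR1KO 12. Rpl4, a large subunit protein that reaches into the exit tunnel, lay 0.0093 and 0.15 higher.

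Transcript length moved with the same pair of libraries. The longest coding transcript had a median of 925.5 bases in the members and 3169.5 bases in all tested protein-coding genes. Among the other tested genes, those with a coding transcript under 1 kb were lower by a median of 0.45 in scrambled control 3 and 0.43 in IFNγR1KO 12, whereas those of 8 kb or more were higher by 0.35 and 0.33. The median log2 fold change between the groups was between -0.03 and -0.007 in all 5 length classes of these genes. Within the members, whose lengths span a smaller range, the difference of a library was little related to length (Pearson r of 0.16 and 0.12 with log2 length over 82 genes) or to GC content (0.03 and 0.04). The 47 members under 1 kb lay lower by a median of 0.58 in scrambled control 3, against 0.45 for other genes of this length. The 28 members of 1 to 2 kb lay lower by a median of 0.49, against 0.21. The 6 members of 2000 to 4000 bases had median differences of -0.52 in scrambled control 3 and -0.60 in IFNγR1KO 12. Other genes of that length had 0.024 and 0.017. The 1 member of 4000 to 8000 bases stood at -0.71 and -0.66, where other genes had medians of 0.23 and 0.19. In the comparison of the groups described below, an edgeR fit that took out each library's trend on exonic length called no member. The members' median log2 fold change was 0.09 in that fit. The part of transcript length in the low values of these 2 libraries was not tested.

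**Figure D2:**
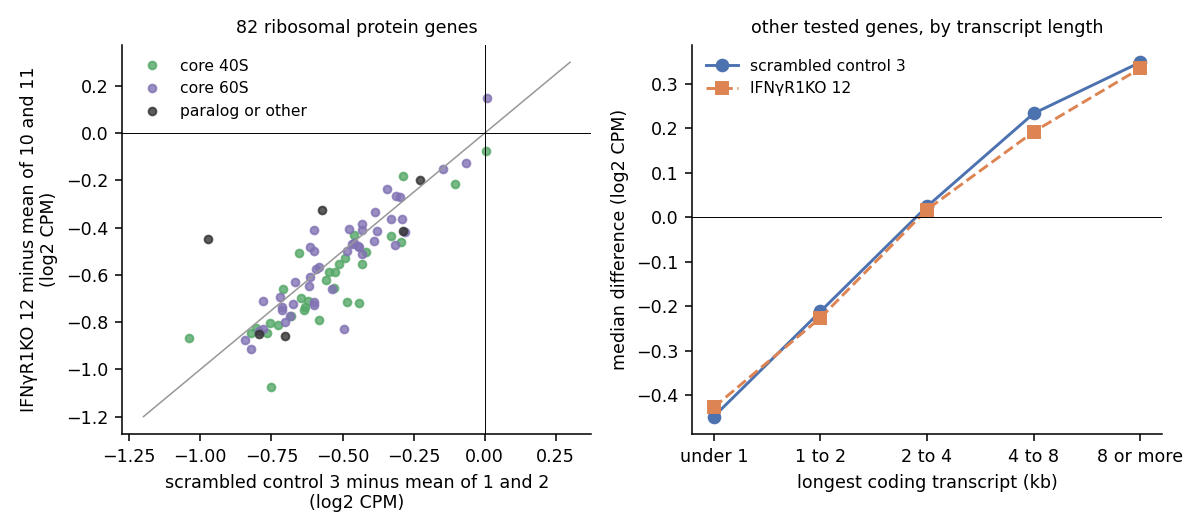
Left, the difference (log2 CPM) of scrambled control 3 (x axis) and IFNγR1KO 12 (y axis) from the mean of the other libraries of their group, 1 point per member, with the line of equal differences; nearly all of the 82 members lie below 0 on both axes. Right, the median of the same differences over other tested genes by length of the longest coding transcript (kb), rising in both libraries from below 0 under 1 kb to above 0 at 8 kb or more.

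Between IFNγR1KO and scrambled control cells, no ribosomal protein gene passed the test of all 6 libraries by group alone. Of the 86 members, 82 passed the filter on low counts and 4 did not. By the quasi-likelihood test of edgeR, adjusted by Benjamini-Hochberg over all 13642 tested genes, 0 of 82 members had an adjusted p under 0.05 in either direction, where 7.73% of all tested genes were called higher, 7.62% lower and 15.3% in either direction. None was a DEG, that is, called with a log2 fold change beyond 1 in either direction, whereas 5.2% of all tested genes were. At an unadjusted p under 0.05 there was 1 member, Rpl13a, or 1 of 82 against 28.9% of all tested genes, and DESeq2's Wald test called 0 members. The groups did not overlap for 1 member, Rps4x, or 1.22% of members, compared with 32.6% of all tested genes. The level of Rps4x was 980, 1157 and 1069 CPM in the controls and 1271, 1180 and 1162 CPM in IFNγR1KO, a log2 fold change of 0.17 (SE 0.15, adjusted p = 0.498).

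The estimates leaned slightly to the IFNγR1KO side. The median log2 fold change was 0.10 over the 82 members and -0.0015 over all tested genes, with 63 members above 0 and 19 below it and a median SE of 0.21. The median was 0.13 over the 31 core 40S genes (26 above 0) and 0.08 over the 45 tested core 60S genes (35 above 0). The sign of such a small median depended on the libraries used: it was -0.08 without scrambled control 3 and 0.26 without IFNγR1KO 12. The 95% interval of the fold change lay within a 2-fold change either way for 80 of 82 members, and within a 1.5-fold change for 39, so that larger changes are not excluded for the others. Across all members the intervals reached from -0.91, in Rps27l, to 1.43, in Rpl36al.

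**Figure D3:**
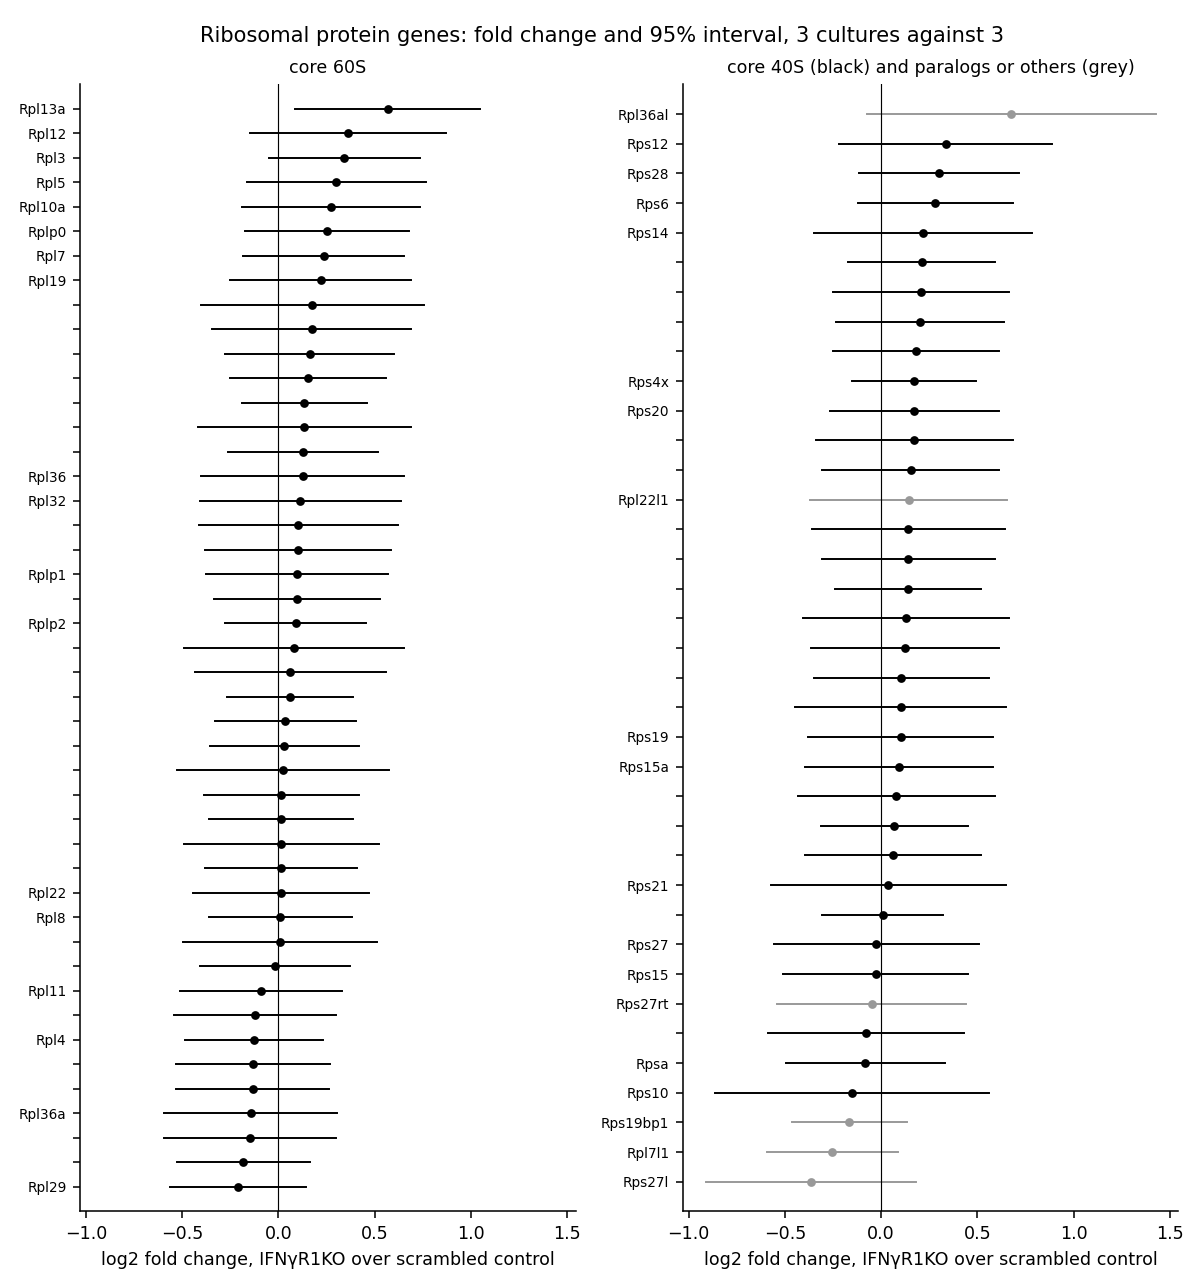
Log2 fold change (x axis, IFNγR1KO over scrambled control) with its 95% interval for each tested member, core 60S genes on the left and core 40S (black) and paralog or other genes (grey) on the right, in order of the estimate, with the names of the members described in the text. The interval of Rpl13a (0.09 to 1.05) is the one that leaves out 0, before adjustment for the number of genes tested.

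Leaving out scrambled control 3 and IFNγR1KO 12 hardly moved the estimates but shrank their errors. The median SE of the members fell from 0.21 to 0.10, while the median log2 fold change was 0.11. In this fit of 2 libraries against 2, 7 members were called higher (10.5% of all 13747 tested genes were) and 1 was called lower (11.8% of all tested genes were), and 15 members (18.3%) had an unadjusted p under 0.05, as did 34.4% of all tested genes. The libraries were left out because these same genes were low in them, so the calls are not independent of that choice. The members called higher were Rpl13a, Rpl3, Rpl12, Rps12, Rpl5, Rps6 and Rps28, and Rps27l was called lower. All of them had the same direction with all 6 libraries, with adjusted p between 0.106 and 0.434 (edgeR). Their size depended on either library of the pair: without scrambled control 3 alone, the log2 fold changes of the 7 were 0.11 (Rps12) to 0.42 (Rpl13a) and that of Rps27l was -0.59, and without IFNγR1KO 12 alone, they were 0.43 (Rps6) to 0.80 (Rpl13a) and -0.14.

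All 6 libraries were also fitted with a term for the low pair, likewise chosen after these values had been seen. The median log2 fold change of the members was 0.09 and their median SE was 0.07. In this fit 13 members were called higher and 3 lower, or 15.9% and 3.66% of the 82 tested, whereas 16.4% of all tested genes were called higher and 18.6% lower. An unadjusted p under 0.05 was reached by 27 members (32.9%) and by 43.8% of all tested genes. The calls included the 8 members named before, and further calls included Rpl7, Rpl10a, Rpl19, Rplp0 and Rps14 on the higher side and Rpl29 and Rpl7l1 on the lower. The log2 fold changes of those named ran from 0.21 (Rpl19) to 0.55 (Rpl13a) and from -0.37 (Rps27l) to -0.21 (Rpl29), and the share of members called was not tested against that of other genes.

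**Figure D4:**
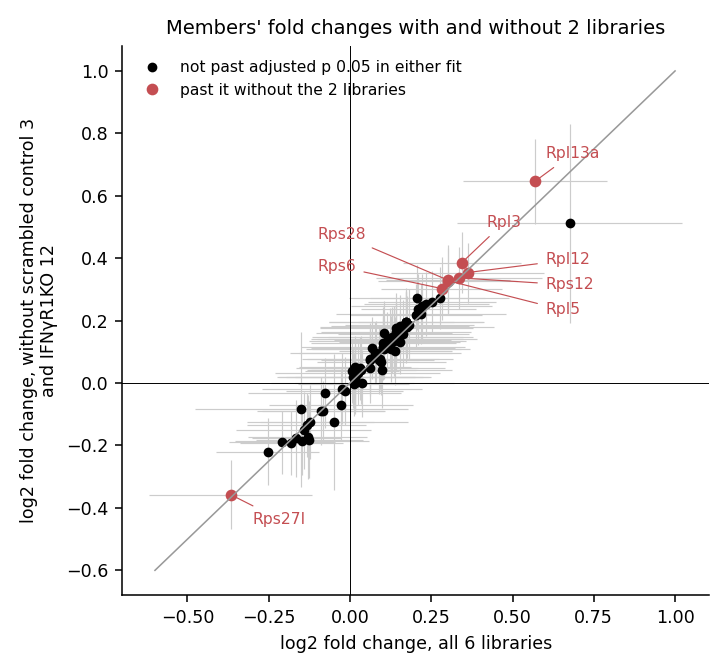
Log2 fold change of the 82 tested members with all 6 libraries (x axis) and without scrambled control 3 and IFNγR1KO 12 (y axis), with bars of 1 SE and the line of equality. Points lie close to the line, and the 8 members in red have an adjusted p under 0.05 only on the y axis.

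Among small subunit proteins, Rps6 is the substrate of the S6 kinases. Its phosphorylation, not its mRNA level, is the usual readout of mTORC1 activity. The mRNA of Rps6 stood at 927, 875 and 675 CPM in the controls and at 1127, 1099 and 785 CPM in IFNγR1KO. IFNγR1KO 12 lay inside the range of the controls, and the log2 fold change was 0.28 (SE 0.18, adjusted p = 0.353) with all libraries and 0.30 (SE 0.10, adjusted p = 0.0367) without the pair. Rps12, another protein of the small subunit, was at 1622, 1499 and 892 CPM against 1966, 1982 and 1113 CPM, with a log2 fold change of 0.33 (SE 0.26, adjusted p = 0.434). Its spread followed the low pair of libraries, and without the pair the adjusted p was 0.0184. The estimate was 0.11 without scrambled control 3 alone and 0.56 without IFNγR1KO 12 alone. Rps28 had 467, 549 and 375 CPM in the controls and 607, 672 and 435 CPM in IFNγR1KO, a log2 fold change of 0.30 (SE 0.19). Rps14 and Rps19, whose loss impairs red cell formation in humans, had log2 fold changes of 0.22 (SE 0.26) and 0.10 (SE 0.22), and were not called with or without the pair, although Rps14 was with a term for it (adjusted p = 0.0187, edgeR). Rpsa, the protein also known as the laminin receptor, was at -0.08 (SE 0.19).

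Among large subunit proteins, Rpl3 lies next to the peptidyl transferase centre. Its level was 1656, 1625 and 1317 CPM in the controls and 2156, 2135 and 1544 CPM in IFNγR1KO, with only IFNγR1KO 12 inside the range of the controls. The log2 fold change was 0.34 (SE 0.18, adjusted p = 0.235) and, without the pair, 0.39 (SE 0.10, adjusted p = 0.00706). Rpl5 and Rpl11 form, with 5S RNA, the particle that binds the p53 regulator Mdm2 when ribosome assembly fails. They did not share an estimate: Rpl5 was at 1283, 1124 and 827 CPM against 1551, 1474 and 957 CPM (log2 fold change 0.30, SE 0.21), and Rpl11 at 918, 1108 and 721 CPM against 974, 933 and 674 CPM (-0.09, SE 0.19). The difference between them was not tested, and Rpl11 was called in none of these fits.

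The stalk of the large subunit, which recruits elongation factors, is made of Rplp0, Rplp1 and Rplp2 on a base formed with Rpl12. Rplp0 had 2972, 3209 and 2272 CPM in the controls and 3830, 3588 and 2657 CPM in IFNγR1KO (log2 fold change 0.25, SE 0.20, adjusted p = 0.442). Rpl12 was at 2159, 2084 and 1288 CPM against 2762, 2668 and 1679 CPM (0.36, SE 0.24, adjusted p = 0.348 with all libraries and 0.0115 without the pair). Rplp1 and Rplp2 were closer to 0, at 0.10 (SE 0.22) and 0.09 (SE 0.17). In all 4 stalk genes IFNγR1KO 12 was below the highest control, so the groups overlapped.

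Rpl13a is known outside the ribosome as a part of the complex that silences translation of inflammatory mRNAs in myeloid cells after IFN-γ. It had the smallest p of all members. Its counts were 311, 317 and 238 in scrambled control and 377, 360 and 203 in IFNγR1KO, which are 33.8, 31.5 and 23.0 CPM and 53.6, 48.8 and 28.5 CPM. IFNγR1KO 10 and 11 lay above all controls, and IFNγR1KO 12 lay between them. The log2 fold change was 0.57 (SE 0.22, unadjusted p = 0.024, adjusted p = 0.106 from edgeR) with all libraries, and 0.65 (SE 0.14, adjusted p = 0.00186) without the pair. Over the alternatives tried its adjusted p ranged from 0.000709 to 0.468. Rpl13a lies on chromosome 7 from 45125558 to 45128761 (GRCm38), and 59.3% of its longest coding transcript is covered by exons of other genes on the same strand (Gm45713, Mir5121 and Snord33). Reads that fall on more than 1 gene were tallied as ambiguous by the counting, and the part of this in its level was not tested.

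Overlaps of this kind stood beside the lowest counts of the core members. Rpl24 had 0 to 8 counts per library and was not tested, and 71.5% of its coding transcript lies under exons of Gm28037. Rps10 had 19 to 69 counts, and 53.6% of its coding transcript lies under the read-through gene RPS10-NUDT3. In all, 6 members have over 10% of the coding transcript under exons of another gene on the same strand and 12 under exons on the opposite strand. The strand setting of the counting is not given in the sources used here, and the part of these overlaps in the low counts was not tested. Ambiguous reads made up 1.73% ± 0.141 and 1.75% ± 0.0763 of all tallied reads. The overlaps are those of GENCODE M21, and the release that was counted may differ from it.

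Levels per length differed widely among the core members. Counts per kilobase of exon, scaled to a common total over the tested genes (TPM), were highest in scrambled control cells for Rplp1 (12339 ± 2520), followed by Rpl36 (8501 ± 1764), Rps15 (7032 ± 1378), Rpl32 (6033 ± 1029) and Rpl8 (4424 ± 213, all SD, n = 3). Rpl36 and Rps15, and Rps15 and Rpl32, differed by less than the larger of their SDs. The lowest of the 76 tested core members were Rps10 (6.04 ± 1.33) and Rpl13a (35.1 ± 4.35), both with the overlaps described above. Rpl24 was not tested and so not ranked. Then came Rps15a (355 ± 64.7), Rps20 (382 ± 53.5) and Rpl36a (393 ± 69.9), where these 3 were within an SD of each other. With the longest coding transcript as the length, 3 of the 5 highest remained among the highest 5. Rpl36a, then at rank 65 of 76, left the lowest 5. In IFNγR1KO cells Rplp1, Rpl36, Rps15 and Rpl32 held the same 4 ranks. Of the 100 genes with the most counts over all libraries, 38 were members.

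Of the paralogs, Rpl3l, Rpl10l and Rpl39l had at most 1 count in any library, under the limit of 3 counts, which is at most 0.426 CPM. They are the paralogs known for expression in muscle and testis. For the other 5 paralogs, the level per length was set against that of the parent gene, as the paralog's percentage of the sum of both, with the union of exons as the length of each. Reads shared by a paralog and its parent may be missing from either, which was not tested.

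Rps27l, known as a p53 target that can replace Rps27 in the small subunit, had 517, 439 and 274 CPM in the controls and 370, 376 and 207 CPM in IFNγR1KO. Its share of the pair was 56.4%, 47.5% and 51.3% in scrambled control and 45.2%, 46.9% and 45.3% in IFNγR1KO. The shares did not overlap, by a narrow gap between 46.9% and 47.5%, and the means were 51.7% ± 4.44 and 45.8% ± 0.967 (SD, n = 3 each, exact permutation p = 0.1, which is the smallest that 3 against 3 can give, adjusted p = 0.167 over 5 pairs). The log2 fold change of Rps27l itself was -0.37 (SE 0.25, adjusted p = 0.375) with all libraries and -0.36 (SE 0.11, adjusted p = 0.0249) without the pair of low ones, while Rps27 was at -0.03 (SE 0.25). With a term for the pair, Rps27l had an adjusted p of 0.00122 (edgeR).

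Rpl7l1, which takes part in early large subunit assembly, had 296, 283 and 237 CPM in the controls and 252, 246 and 187 CPM in IFNγR1KO. Its share of the pair with Rpl7 was 15.2%, 13.3% and 15.5% against 10.4%, 10.9% and 11.3%, so every knockout library was below every control, and the low libraries did not stand apart. The means were 14.6% ± 1.18 and 10.9% ± 0.468 (SD, n = 3 each, exact permutation p = 0.1, adjusted p = 0.167). The fold changes behind it were of opposite sign, -0.25 (SE 0.16, adjusted p = 0.323) for Rpl7l1 and 0.24 (SE 0.19, adjusted p = 0.469) for Rpl7. Neither passed the test with or without the low pair, and both did with a term for it (adjusted p = 0.0118 and 0.0208, edgeR).

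Rpl36al had 26, 31 and 13 counts in scrambled control and 27, 34 and 21 in IFNγR1KO, and it was the member with the highest estimate, a log2 fold change of 0.68 (SE 0.35, adjusted p = 0.221). It made up 1.35%, 1.13% and 0.789% of its pair with Rpl36a in scrambled control and 1.77%, 2.08% and 1.99% in IFNγR1KO, without overlap (means 1.09% ± 0.281 and 1.95% ± 0.16, SD, n = 3 each, exact permutation p = 0.1, adjusted p = 0.167). At these counts the change is not well determined. Rpl22l1, the paralog of the RNA-binding protein Rpl22, made up 23.5% ± 0.633 and 24.97% ± 1.63 of its pair (SD, n = 3 each, exact permutation p = 0.3), and the groups overlapped through IFNγR1KO 12. Rps27rt, a retrotransposed copy of Rps27, made up 4.76% ± 0.33 and 4.78% ± 0.896 (exact permutation p = 1). No pair passed the adjusted test, and no pair could have. The shares depended on the length used. With the longest coding transcript, Rpl22l1 made up 43.8% ± 0.869 and 45.8% ± 2.19 of its pair and Rps27l 40.1% ± 4.29 and 34.5% ± 0.883, so that the order of their means turned. Rpl7l1 then made up 9.06% ± 0.775 and 6.61% ± 0.298, Rpl36al 0.339% ± 0.0882 and 0.61% ± 0.051, and Rps27rt 2.15% ± 0.153 and 2.16% ± 0.416 (SD, n = 3 each). Which pairs overlapped between groups, and the exact permutation p of each, were the same for both lengths.

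**Figure D5:**
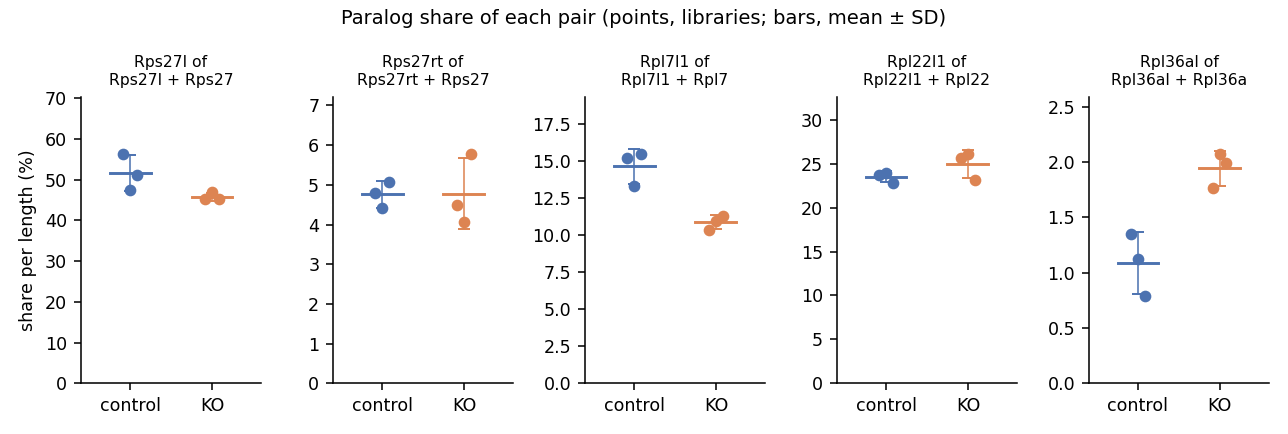
Level per length (union of exons) of each paralog as a percentage of the sum of paralog and parent (y axis, scales differ) in scrambled control (blue) and IFNγR1KO (orange, KO) libraries, with mean ± SD. Rps27l, Rpl7l1 and Rpl36al have no overlap between groups, and Rps27rt and Rpl22l1 do.

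Of the ribosomal proteins of other name, Fau, a fusion of a ribosomal protein with a ubiquitin-like protein, had a log2 fold change of 0.14 (SE 0.22), and Rack1, a signalling scaffold on the small subunit, was at 0.39 (SE 0.21). Neither passed the test by group alone, and Rack1 did without the low pair (adjusted p = 0.00368, edgeR). The list holds 3 tested genes, and the remaining 1 went the other way, with a log2 fold change of -0.26, and was not called. The 19 other mRNAs known to carry a TOP tract, mostly elongation and initiation factors, had a median log2 fold change of 0.02. By the definition above, 6 of the 13 in the promoter table (46.2%) held one. Of the 19, edgeR called 0, against 15.3% of all tested genes, and DESeq2 called 1. At an unadjusted p under 0.05 there were 2, against 28.9% of all tested genes. Without the low pair, 1 of them was called higher, Tpt1, and 2 lower, Eef1d and Hnrnpa1. In that fit 10.5% of all tested genes were called higher and 11.8% lower.

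The mitochondrial ribosomal proteins build the separate ribosome of mitochondria and are not known as TOP mRNAs as a class. By the definition above, 17 of 69 in the promoter table (24.6%) held a tract, and so did 21.2% of all its genes. The 77 tested had a median log2 fold change of -0.02 with 1 called higher and 3 lower, or 5.19% of the list against 15.3% of all tested genes (5 called by DESeq2). Mrps18b was higher (0.64, SE 0.15, adjusted p = 0.0141), and Mrpl16 (-0.93, SE 0.15, adjusted p = 0.00181), Mrpl18 (-0.82, SE 0.16) and Mrps25 (-0.45, SE 0.14) were lower. They made up 0.577% ± 0.0737 of counts in scrambled control and 0.57% ± 0.0724 in IFNγR1KO, and they were also low in scrambled control 3 and IFNγR1KO 12, by medians of 0.37 and 0.43.

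Of 104 genes for ribosome assembly, 5 were called higher and 2 lower, or 6.73% of the list against 15.3% of all tested genes (8 called by DESeq2). Riok1 (log2 fold change 0.61, SE 0.15, adjusted p = 0.0172), an atypical kinase of late small subunit maturation, rose with its relatives Riok2 and Riok3, and so did Wdr74 (0.50, SE 0.14) and Tsr3, the last of which was not called without the low pair (adjusted p = 0.0644). Nolc1 (-0.65, SE 0.17, adjusted p = 0.0225), a nucleolar phosphoprotein, and Dkc1 (-0.49, SE 0.13), which converts uridine to pseudouridine in ribosomal RNA, fell. The median of the list was -0.02. For the 17 chaperones and importers of ribosomal proteins, edgeR called 0 and DESeq2 0, and the median was -0.17. An unadjusted p under 0.05 was reached by 4 of them and by 28.9% of all tested genes.

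Of 20 tested regulators of TOP mRNA translation, 3 were called higher and 2 lower, where 15.3% of all tested genes were called in either direction. Eif4ebp1, a repressor of cap-dependent translation that mTORC1 switches off, had 125 ± 24.7 CPM in the controls and 295 ± 9.9 CPM in IFNγR1KO (SD, n = 3 each), and its log2 fold change was 1.23 (SE 0.16, adjusted p = 0.000355). Larp1b, a relative of Larp1, was higher by 1.01 (SE 0.21, adjusted p = 0.00644), and Rps6kb2, an S6 kinase, by 0.51 (SE 0.16, adjusted p = 0.0489). Eif4ebp2, another repressor of this kind, was lower by 0.77 on the log2 scale (SE 0.21, adjusted p = 0.0295), and so was Eif4e, the cap-binding protein that both repressors hold (-0.45, SE 0.14, adjusted p = 0.0407). Larp1 itself (-0.02, SE 0.21), Mtor (0.03, SE 0.22) and Rptor (-0.23, SE 0.19) did not pass the test. The groups did not overlap for any of the 5 genes that were called, or 25% of the list, compared with 32.6% of all tested genes. Without the low pair, 4 of the list were called higher and 2 lower, where 10.5% and 11.8% of all tested genes were. These calls included all 5 genes called with all libraries. DESeq2 called 4 of the 5, leaving out Rps6kb2 (adjusted p = 0.0662). With a term for the low pair, 4 of these regulators were called higher and 2 lower, 10 and 15 of the mitochondrial ribosomal proteins, 11 and 20 of the assembly genes, 1 and 8 of the chaperones and importers, and 2 and 4 of the other TOP mRNAs, where 16.4% of all tested genes were called higher and 18.6% lower.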

How the data were processed

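The authors aligned paired-end reads of poly(A) RNA to GRCm38 with STAR 2.7.5a and deposited, for each of 6 libraries, raw htseq-count (HTSeq 0.11.2) counts per gene. Annotation release and strand setting are not given in the sources used here. The tally rows (5 per library) were left out of library sizes, and held 53.3% and 53.5% of all tallied reads in scrambled control and IFNγR1KO, of which reads on no gene were 47.4% and 47.6%.

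The members, lists and tests were chosen with earlier results of these data known. GENCODE M21 gave symbols, positions and lengths for 55154 of 55335 identifiers. Counts were compared with edgeR 4.0.16 in R 4.3.3 (filterByExpr with a minimum count of 10 and total of 15, TMM, quasi-likelihood test, Benjamini-Hochberg over all tested genes), which was tested on simulated data. DESeq2 1.42.0 was an alternative, as were 7 other normalizations, filters and offsets leaving out each library, and, chosen after seeing the data, leaving out scrambled control 3 and IFNγR1KO 12 or giving this pair a term in the design. The study's own test was DESeq2 1.34.0. Shares and ratios were compared by exact permutation over libraries.

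Members were named by rule: paralogs above 3 counts, up to 10 called members per direction, the 5 highest and 5 lowest core members per length, 7 textbook members, the 3 with the largest spread within a group, and up to 3 called genes per list and direction. Rpl3, Rpl12, Rps12, Rps28, Rps4x, Rpl4, Rpl7, Rpl10a, Rpl19, Rpl29, Rpsa, Rplp2, Rpl24, the genes named beside them in the lists without a call, and Riok2 and Tsr3 were named after their values were seen. Some genes of the lists are not reported here.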

Additional observations from a re-analysis of the deposited data

How the results depend on the processing

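The labels give the groups different replicate numbers. No paired analysis by label was possible because scrambled control (1, 2 and 3) and IFNγR1KO (10, 11 and 12) libraries share no number. A term for scrambled control 3 and IFNγR1KO 12, chosen from their values, was fitted instead. The number of members called higher was 1 in place of 0 when no low-count filter was used (Rpl13a), and between 0 and 1 when each library was left out in turn, where the 1 was Rpl13a without IFNγR1KO 12. It was 7 without scrambled control 3 and IFNγR1KO 12 together, with 1 member called lower, and 13 with a term for this pair, with 3 called lower. The cause was not tested, and a smaller spread within groups goes with both settings by construction. DESeq2, other library sizes, the filter at 1 CPM and the length and GC offsets called no member.

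The sign of several small fold changes of members turned. That of Rpl8 was -0.0015 with DESeq2, -0.081 with library sizes from the members' counts, -0.018 with no filter and -0.0042 without both libraries. Library sizes from the members' counts gave -0.0033 for Rps15a, -0.0029 for Rps19 and -0.049 for Rps21, and leaving out both libraries gave -0.00055 for Rps21. Library totals without a factor gave 0.023 for Rps15 and 0.0013 for Rps27rt. Leaving out each library in turn gave log2 fold changes from -0.24 to 0.068 for Rpl11, -0.058 to 0.38 for Rpl22l1, -0.080 to 0.33 for Rpl32, -0.091 to 0.32 for Rpl36, -0.32 to 0.073 for Rpl36a, -0.087 to 0.11 for Rpl8, -0.083 to 0.34 for Rplp1, -0.38 to 0.15 for Rps10, -0.0085 to 0.45 for Rps14, -0.22 to 0.20 for Rps15, -0.11 to 0.28 for Rps15a, -0.085 to 0.30 for Rps19, -0.24 to 0.27 for Rps21 and -0.23 to 0.10 for Rps27rt. None of these values passed the test, and the cause was not tested. The difference in the share of Rps27rt, in percentage points, was -0.33 without both libraries and -0.49 to 0.37 when each library was left out.

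The difference in the share of counts was -0.0106 percentage points for the paralogs and Rps19bp1 alone. For the members it stayed positive under every denominator and other gene set tried. It was 0.0668 to 1.85 percentage points when each library was left out. With 3 libraries a group and a median SE of 0.21, the interval of the fold change lay within a 1.5-fold change for 39 of 82 members, and larger changes are not excluded for the others.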
